A study of Mus musculus with 16 samples.

Results

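The genes described here are the replication-dependent core histone genes and the linker histone genes of the mouse. They were chosen by name: protein-coding rows of the deposited table called H1f, H2ac, H2bc, H3c or H4c followed by a number. This gave 69 genes of the 56748 in the table (21970 of them protein-coding): 11 for the linker histone H1, 17 for H2A, 17 for H2B, 12 for H3 and 12 for H4. No gene carried an older Hist name, and the pseudogene H2ac14 was left out by its biotype. RNA was sequenced from the trunk or the caudal region of mouse embryos at the stage E11.5 (embryonic day). The embryos were either Ednrb+/+, called WT here, or Ednrb-/-, with a targeted mutation of endothelin receptor B, which migrating pigment cell precursors need. Each of the 4 groups (WT trunk, WT caudal, Ednrb-/- trunk, Ednrb-/- caudal) had 4 libraries, described as biological replicates, and the series asks how the tissue around pigment cells bears on where pigmented spots form. The strain, the sex of the embryos, the altered part of Ednrb and any embryo shared by a trunk and a caudal library were not found among the labels.

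Histones package DNA into nucleosomes, each a spool of H2A, H2B, H3 and H4 with DNA wound around it, and linker histone H1 binds where the DNA enters and leaves the spool. Most core histone genes lie in clusters, have no introns and are transcribed in S phase, when newly copied DNA needs new histones. Their messenger RNAs usually end in a conserved stem-loop, bound by the stem-loop binding protein SLBP, in place of a poly(A) tail, and they are degraded when DNA synthesis stops. A smaller number of histone genes, among them the linker histones H1f0 and H1f10, make ordinary polyadenylated messenger RNA outside S phase too, and H1f0 is known for accumulating in cells that leave the cell cycle. The tissues sequenced here are mixtures of dividing progenitors and differentiating cells, so fewer cells of a type and less RNA per cell cannot be told apart in any value below.

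Depth was similar across the 16 libraries, from 34883821 to 43444905 reads in listed genes. The 69 histone genes took between 0.0437% and 0.0467% of those reads, and 12362 to 15719 of the reads in each library were of H1f0 alone. Ednrb stood between 1.59 and 4.80 FPKM in Ednrb-/- libraries and between 26.2 and 41.8 FPKM in WT libraries, where FPKM counts fragments relative to gene length and library size. The library size implied by the FPKM values, relative to the listed reads, differed by genotype. It was 1.0127 to 1.0349 in WT, 0.9945 to 1.0064 in Ednrb-/- trunk and 0.9486 to 0.9973 in Ednrb-/- caudal libraries. A smaller library size gives a higher FPKM for the same reads. All 12 genes of Hox paralog groups 10 to 13, which mark the posterior body, were lower in trunk than in caudal tissue in both genotypes (limma, Benjamini-Hochberg adjusted p under 0.05). Xist and the Y-linked Ddx3y were both at 5 FPKM or more in 3 libraries: WT caudal replicate 2, Ednrb-/- trunk replicate 3 and Ednrb-/- caudal replicate 3. A call that is lost without those libraries is given with its value there.

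The feature that sets these messenger RNAs apart was searched for first. The pattern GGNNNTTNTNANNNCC, with its outer 6 bases able to pair with each other, was found in the GENCODE M21 transcripts of 43 of the 69 genes, against 0.153% of 58797 protein-coding transcripts. The stem-loops came in 8 spellings, and 24 genes of classes H1, H2A, H2B and H3 shared the commonest one. H4 genes carried spellings with a different stem. These windows show the stem-loop in capitals with 5 bases on each side, 5′ to 3′, for genes that recur in the results:
H1f2: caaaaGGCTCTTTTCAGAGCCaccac
H2ac8: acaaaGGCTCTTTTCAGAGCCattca
H2bc8: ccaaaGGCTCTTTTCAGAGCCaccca
H3c3: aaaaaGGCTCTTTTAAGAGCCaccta
H4c9: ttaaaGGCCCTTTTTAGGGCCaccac
H1f2, H2ac8 and H2bc8 thus carried the identical 16 bases, H3c3 differed from them within the loop, and H4c9 had both another stem and another loop.

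The other way to end a messenger RNA is a poly(A) signal shortly before a tail. AATAAA or ATTAAA stood within the last 50 bases of 50.2% of protein-coding transcripts. Among the histone genes, 7 had such a signal and no stem-loop, and 11 had both, with the stem-loop further upstream. H1f2 had 840 bases after its stem-loop, H4c9 330 and H2ac8 151. A further 32 genes had a stem-loop and no signal, and in 19 the modelled transcript held neither (several of those models stop at or near the coding sequence, and the deposited length equalled the model in 65 of 69 genes). The next windows show the signal in capitals for the 3 genes with a signal and no stem-loop that reached 1 FPKM, and for H1f2 and H4c9, which have both:
H1f0: aaaactttaaAATAAAactggaaagg
H1f10: cctggggcgcAATAAAcggttccaac
H2bc21: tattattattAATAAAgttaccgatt
H1f2: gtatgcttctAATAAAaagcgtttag
H4c9: ttctgtttacATTAAAagtattctat
A match is a description of the model; which end each RNA molecule used was not measured.

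Levels were low for most of the set. A mean of 1 FPKM or more over the 16 libraries was reached by 14 of 69 histone genes (20.3%), against 53.8% of protein-coding genes. H1f0 stood far above the rest at 177 FPKM, followed by H1f10 at 19.7 and H4c9 at 19.2. The core histones next in order were H3c3 at 5.27, H2bc21 at 4.51, H2ac11 at 3.32 and H2bc4 at 3.25 FPKM, with the linker histone H1f2 at 4.14. The 3 highest genes all had a poly(A) signal at the end of their model. Signal-only genes were not high throughout, since 4 of those 7 stayed below 1 FPKM. Genes with a stem-loop and no signal had a median of 0.347 FPKM, and 4 of the 32 reached 1 FPKM: H3c3, H2ac11, H2bc12 and H2bc11. Genes with both had a median of 0.342 FPKM, with H4c9, H1f2 and H2ac8 above 1.

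**Figure D1:**
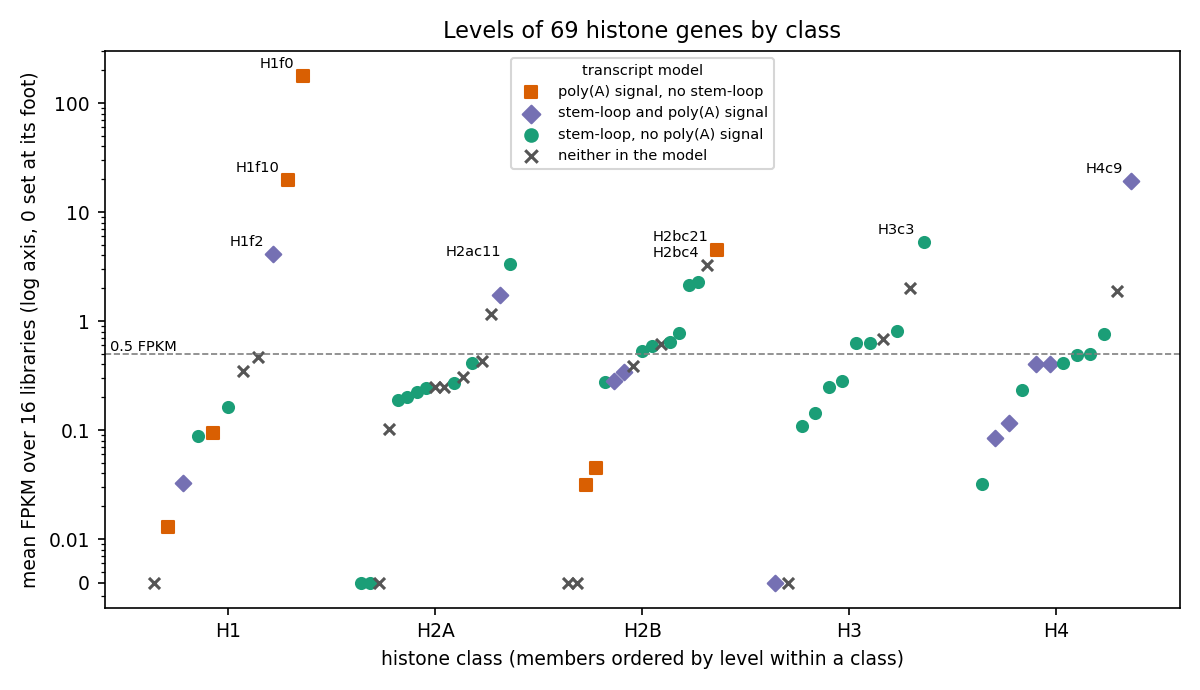
Mean FPKM over 16 libraries (log axis, with 0 drawn at its foot) of the 69 histone genes, by class, ordered by level within a class; symbols give the ends found in the transcript model. H1f0 at 177 FPKM, H1f10 at 19.7 and H4c9 at 19.2 stand above all others, and most genes lie under the dashed line at 0.5 FPKM.

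RNAs that are made without a poly(A) tail were low in the same libraries. Of 23 such small nuclear, nucleolar and other structural RNAs on a list, 21 were in the table and 12 of these were at 0 in every library, among them Terc, Rpph1 and Rnu11. Rn7sk, the 7SK RNA that holds back transcription elongation and is abundant in cells, reached at most 1.35 FPKM. The highest were Snord43, at up to 21.7 FPKM, and Snord17, at up to 5.57 FPKM, both of which lie within introns of other genes. Any selection for poly(A) RNA (not given in the sources used here) was not known, and its part in the low histone levels was not tested.

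Histone genes also share sequence with each other, which bears on how many reads can be assigned to one gene. The share of 100-base windows of a gene's longest transcript found in no other gene ranged from 0% to 100%, with a median of 65.3%. Medians were 100% for H1, 74.6% for H4, 59.9% for H2B, 50.2% for H3 and 23.8% for H2A. In 5 genes no window was unique (H2ac18, H2ac19, H2bc18, H3c13 and H3c14), and all 5 were at 0 in all 16 libraries. Only 3 other members were at 0 throughout, H1f7, H2ac1 and H2bc1, which are known as germ cell histones. H1f0 had 96.7% unique windows, H1f2 94.9%, H4c9 84.9% and H2bc4 74.6%, whereas H2ac11 had 23.8%, H2ac13 11.6% and H3c10 8.0%. Values of the last 3 are uncertain for that reason, since no source used here says how reads that match several genes were treated. All 17 H2A genes, and 26 of the 69 in all, also overlapped another listed gene, and no source used here gives the strand setting.

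**Figure D2:**
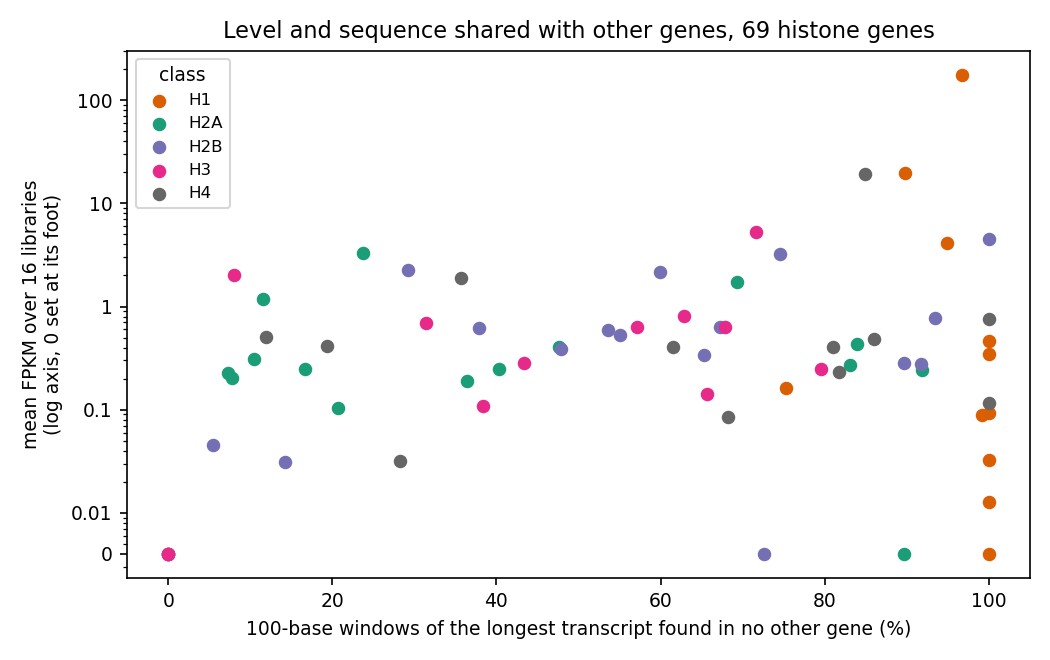
Mean FPKM over 16 libraries (log axis, with 0 drawn at its foot) against the percentage of 100-base windows of the longest transcript found in no other gene, 1 point per histone gene, coloured by class. The 5 genes at 0% unique windows overlap in 1 point at the lower left, all listed at 0 FPKM.

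The genes lay on few chromosomes: 54 on chromosome 13, 10 on chromosome 3, 2 each on chromosomes 15 and 6, and 1 on chromosome 11. There were 12 pairs of an H2A and an H2B gene that start within 500 bases of each other and point apart, such as H2ac8 with H2bc8 (176 bases between starts) and H2ac11 with H2bc11 (270). Partners of a pair could differ in level: H2bc4 had 3.25 FPKM and its partner H2ac6 0.243, and H2bc21 had 4.51 and its partner H2ac20 0.272. Promoter windows from 250 bases before to 50 after the start (RefSeq, GRCm38.p6) were found for 62 of the 69 genes, all except H1f9, H2bc4, H2bc21, H2bc24, H3c1, H3c7 and H4c14. On either strand, CCAAT was in 51 of the 62 (82.3%; 41.1% of 27025 genes), TATAAA in 34 (54.8%; 15.7%) and the octamer ATTTGCAT, a sequence that POU factors bind, in 13 of the 62 (1.97% of all genes). The octamer was found in 7 of 14 H2B and 6 of 17 H2A windows and in no window of the other classes. CCAAT was in every H2A, H2B and H3 window, in 7 of 10 for H1 and in 3 of 11 for H4. Windows of head-to-head partners can overlap, as for H2ac8 with H2bc8, H2ac12 with H2bc12 and H2ac1 with H2bc1. A single site can thus count for both H2A and H2B. The windows of 3 genes that changed in the comparisons below are printed 5′ to 3′ on the gene's own strand with these motifs, on either strand, in capitals. The first lies at chr13:23571150-23571449 (plus strand) and takes in most of the opposite window of H2ac8, the second at chr13:23738557-23738856 (plus strand) and the third at chr13:22041313-22041612 (minus strand), all on GRCm38.p6:
H2bc8: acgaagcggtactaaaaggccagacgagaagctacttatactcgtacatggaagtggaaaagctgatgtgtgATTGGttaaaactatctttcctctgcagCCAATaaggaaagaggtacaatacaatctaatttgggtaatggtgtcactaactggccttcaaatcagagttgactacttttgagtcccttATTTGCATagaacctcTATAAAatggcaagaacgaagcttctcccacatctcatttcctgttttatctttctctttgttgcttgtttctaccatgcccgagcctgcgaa
H1f2: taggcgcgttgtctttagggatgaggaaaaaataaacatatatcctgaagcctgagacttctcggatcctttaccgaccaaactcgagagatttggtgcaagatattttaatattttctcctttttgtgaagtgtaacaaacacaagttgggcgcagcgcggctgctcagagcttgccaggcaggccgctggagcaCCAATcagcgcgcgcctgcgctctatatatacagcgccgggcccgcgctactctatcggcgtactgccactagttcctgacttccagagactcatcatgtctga
H4c9: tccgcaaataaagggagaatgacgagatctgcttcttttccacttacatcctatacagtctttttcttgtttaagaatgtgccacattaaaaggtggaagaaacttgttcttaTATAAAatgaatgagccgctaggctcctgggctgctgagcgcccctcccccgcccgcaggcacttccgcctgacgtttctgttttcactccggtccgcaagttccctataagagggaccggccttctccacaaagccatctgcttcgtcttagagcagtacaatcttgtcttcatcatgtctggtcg
The H2bc8 window held all 3 motifs, the H1f2 window CCAAT alone and the H4c9 window TATAAA alone.

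Summed over a class, the level per library was steady for H1 and varied more for the core histones. H1 summed to 192 ± 3.73 FPKM (SD, n = 4) in WT trunk, 199 ± 4.94 in WT caudal, 204 ± 5.89 in Ednrb-/- trunk and 212 ± 2.68 in Ednrb-/- caudal tissue, most of it H1f0. Without H1f0 and H1f10 the H1 sum, now mostly H1f2, ran the other way. Its libraries ranged from 5.72 to 6.89 FPKM (WT) and from 2.88 to 4.88 FPKM (Ednrb-/-) in trunk. In caudal tissue that sum was 6.37 ± 0.822 FPKM (5.63 to 7.35) in WT and 4.31 ± 0.315 FPKM (3.85 to 4.55) in Ednrb-/- embryos, so the genotypes overlapped in neither region. H2B summed to 19.2 ± 1.77 and 18.0 ± 2.19 in WT trunk and caudal tissue and to 14.8 ± 0.856 and 14.8 ± 0.363 in Ednrb-/- trunk and caudal tissue. All Ednrb-/- libraries (14.1 to 16.1 FPKM in trunk, 14.3 to 15.2 in caudal tissue) lay below the WT libraries of their region (17.4 to 21.6 and 15.8 to 20.5) for H2B. The H3 sum went from 14.0 ± 3.11 (WT) to 10.9 ± 1.57 (Ednrb-/-) in trunk and from 10.6 ± 2.53 to 7.89 ± 1.38 in caudal tissue, with libraries of the genotypes overlapping in both. H2A stood at 10.7 ± 0.497 and 8.88 ± 1.01 in trunk, where each Ednrb-/- library (7.47 to 9.66) lay below each WT library (10.1 to 11.2), and at 8.87 ± 2.32 and 7.99 ± 1.10 in caudal tissue, where the genotypes overlapped. H4, which is mostly H4c9, ran the other way in caudal tissue, from 22.7 ± 2.63 to 28.1 ± 2.16, and stood at 23.2 ± 0.963 and 24.0 ± 2.34 in trunk. The H4 sum without H4c9 was lower in Ednrb-/- trunk (3.60 to 4.77 FPKM) than in WT trunk (5.07 to 8.49), without overlap. In caudal tissue that sum without H4c9 averaged 5.42 FPKM in WT and 5.24 FPKM in Ednrb-/- embryos, and the genotypes overlapped. The order of the genotypes held under each scaling for the whole sums of H2A, H2B, H3 and H4. For the whole H1 sum in caudal tissue the order turned with TPM (204.1 FPKM in WT, 201.8 in Ednrb-/-) and quantile scaling (211.6 and 193.5). These sums were described and not tested.

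The first comparison was between the genotypes in caudal tissue, and asked how histone genes stood where the receptor was mutated. The test was limma on log2(FPKM + 0.5), for genes that reached 0.5 FPKM in 4 or more libraries, a filter that 34 of the 69 histone genes passed. In Ednrb-/- tissue the linker histone H1f2, the H2B genes H2bc4 and H2bc8 and the H3 gene H3c10 fell, and H4c9 rose, as did H1f0 by a small amount that was lost with TPM scaling, listed reads as the total and voom and reversed with quantile scaling. These 6 calls were 17.6% of the 34 genes, against 41.6% of all 17205 genes tested (21.7% higher, 19.9% lower). Over all genes 3732 rose and 3432 fell, against 2216 and 5028 with TPM scaling, 2670 and 4357 with listed reads as the total and 2613 and 4447 with voom. The median over the 34 was -0.16 on the log2 scale, with 25 below 0, and 0.01 over all genes tested.

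H1f2, a replication-dependent linker histone on chromosome 13 from 23922791 to 23924350 (plus strand, mm39, ENSMUSG00000036181), stood at 5.22, 4.72, 4.64 and 5.83 FPKM in the WT caudal libraries. The Ednrb-/- caudal libraries had 3.71, 3.68, 3.09 and 3.15 FPKM. The groups did not overlap. H1f2 fell by 0.52 ± 0.11 (SE) on the log2 scale (limma adjusted p = 0.0011), and it passed in all 28 alternative settings.

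H4c9, an H4 gene on chromosome 13 from 22224806 to 22225532 (minus strand, ENSMUSG00000060639), had 14.9, 19.2, 19.0 and 15.9 FPKM in WT caudal tissue. In Ednrb-/- caudal tissue it had 22.3, 25.0, 20.6 and 23.6 FPKM, each above every WT library. It rose by 0.40 ± 0.09 (adjusted p = 0.0028), also in all 28 alternatives. The other 7 H4 genes above the filter had differences from -0.22 to 0.38 and none passed (limma; 0 of the 7 at an unadjusted p under 0.05, and 0 with voom).

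H1f0, the linker histone of differentiated cells on chromosome 15 from 78912650 to 78914704 (plus strand, ENSMUSG00000096210), differed little. It had 169, 173, 176 and 163 FPKM in WT caudal tissue and 187, 186, 185 and 184 FPKM in Ednrb-/- caudal tissue, with no overlap. The rise of 0.12 ± 0.03 (adjusted p = 0.0054) was lost with TPM scaling (0.02), with listed reads as the total (0.05) and with voom (0.05), and quantile scaling reversed it (-0.12, adjusted p = 0.0049). Its direction thus depended on the scaling. H1f0 overlaps the gene Gm49544 on the opposite strand.

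The H2B gene H2bc4 (chromosome 13 from 23868182 to 23876891, plus strand, ENSMUSG00000018102) had 3.87, 3.34, 3.62 and 3.41 FPKM in WT and 2.98, 2.52, 2.23 and 3.45 FPKM in Ednrb-/- caudal tissue. The range of WT libraries held 1 Ednrb-/- library, replicate 4. H2bc4 fell by 0.31 ± 0.10 (adjusted p = 0.021), a call that was lost in 6 of 28 alternatives, among them without WT caudal replicate 1, without Ednrb-/- caudal replicate 2 and without Ednrb-/- caudal replicate 3 (adjusted p up to 0.094). Without the libraries that hold both Xist and Ddx3y the fall was 0.25 (-0.25, adjusted p = 0.083).

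H2bc8, on chromosome 13 from 23755570 to 23756187 (plus strand, ENSMUSG00000058385), was near the filter, with 2 to 26 reads per library in caudal tissue. It had 0.527, 1.15, 0.531 and 0.659 FPKM in WT and 0.439, 0.0916, 0.181 and 0.325 FPKM in Ednrb-/- caudal tissue, without overlap. It fell by 0.67 ± 0.19 (adjusted p = 0.011). Without the libraries that hold both Xist and Ddx3y the fall was 0.47 and no longer passed (adjusted p = 0.082). Its head-to-head partner H2ac8 had a difference of -0.22 ± 0.13 (adjusted p = 0.21).

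H3c10, an H3 gene on chromosome 13 from 21901829 to 21902239 (plus strand, ENSMUSG00000101355), had 2.18, 2.86, 2.26 and 1.85 FPKM in WT caudal libraries. In Ednrb-/- caudal tissue it had 0.925, 1.24, 1.70 and 1.40 FPKM, all below the WT libraries. It fell by 0.62 ± 0.19 (adjusted p = 0.017), and the call was lost without WT caudal replicate 2, without Ednrb-/- caudal replicate 1 and with quantile scaling (-0.50, adjusted p = 0.051). With 8.0% unique windows this value cannot be tied to H3c10 alone. All 6 H3 genes above the filter had differences below 0, from -0.62 to -0.02 (with quantile scaling H3c6 at 0.06 and H3c8 at 0.12 stood above 0), and H3c10 was the 1 that passed. No H2A gene passed (limma, 5 above the filter; 0 at an unadjusted p under 0.05, and 0 with voom). The groups were apart in all 4 libraries for 2 histone genes that were higher (19.1% of all genes tested) and 3 that were lower (18.2%).

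In the trunk, fewer histone genes passed: H1f2, H2bc4 and the linker histone H1f1 fell, and H1f0 rose by a small amount that did not pass in 13 of 28 alternatives. These 4 were 11.8% of the 34 genes above the filter, against 25.1% of all genes tested (12.2% higher, 13.0% lower). Over all genes 2092 rose and 2229 fell, against 1643 and 2733 with listed reads as the total and 1729 and 2965 with voom. The median over the 34 was -0.27, with 29 below 0, beside 0.00 over all genes tested. The median lay below that of all genes under each scaling tried, in both regions, and was smallest in size with quantile scaling in caudal tissue (-0.09 beside 0.02).

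H1f2 had 4.89, 5.25, 4.36 and 4.95 FPKM in WT trunk and 3.77, 2.65, 2.66 and 3.62 FPKM in Ednrb-/- trunk. The groups did not overlap, and H1f2 fell by 0.56 ± 0.11 (limma adjusted p = 0.0016). The caudal and trunk comparisons share no library, but whether they share embryos is not known. The fall was of similar size in both, with a difference between regions of 0.04 ± 0.15 (95% interval -0.28 to 0.36).

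H2bc4 had 3.92, 3.77, 3.57 and 4.31 FPKM in WT trunk and 2.42, 3.14, 2.74 and 2.74 FPKM in Ednrb-/- trunk. Here every Ednrb-/- library lay below every WT library. H2bc4 fell by 0.43 ± 0.10 (adjusted p = 0.0059), in all 28 alternatives.

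H1f1, a linker histone on chromosome 13 from 23947649 to 23948389 (plus strand, ENSMUSG00000049539), was counted with 0 to 24 reads per library in trunk. WT trunk libraries had 0.843, 0.646, 0.50 and 0.426 FPKM and Ednrb-/- trunk libraries 0.0959, 0, 0.331 and 0.368 FPKM. There was no overlap. H1f1 fell by 0.68 ± 0.20 (adjusted p = 0.019), and lost the call without WT trunk replicate 1, Ednrb-/- trunk replicate 1 or Ednrb-/- trunk replicate 2. These were 3 of the 26 alternatives that tested H1f1, which missed the filter at 1 FPKM and under 1 of the other scalings. No Ednrb-/- trunk library reached the 0.5 FPKM of the main filter, which can favour genes high in WT trunk. The call held with no filter. In caudal tissue H1f1 stood at 0.312 ± 0.162 (WT) and 0.267 ± 0.103 FPKM, a difference of -0.07 ± 0.20 (adjusted p = 0.80).

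H1f0 had 174, 164, 170.1 and 169.9 FPKM in WT trunk and 181, 189, 176 and 179.7 FPKM in Ednrb-/- trunk, without overlap. The rise of 0.10 ± 0.03 (adjusted p = 0.034) was lost in 13 of 28 alternatives, TPM (0.07) and quantile scaling (0.04) among them. H4c9 had 16.8, 18.2, 18.0 and 14.8 FPKM in WT trunk and 17.6, 19.5, 19.6 and 22.3 FPKM in Ednrb-/- trunk, where the lowest Ednrb-/- library lay within the WT range. Its difference of 0.22 ± 0.09 did not pass (adjusted p = 0.10). H2bc8 (-0.27 ± 0.19, adjusted p = 0.33) and H3c10 (-0.18 ± 0.19, adjusted p = 0.55) did not pass in trunk either. By class, all 10 H2B genes above the filter had differences below 0 (-0.51 to -0.07) and so did all 6 H3 genes (-0.51 to -0.09), of which H2bc4 alone passed. No H2A, H3 or H4 gene passed in trunk (limma; 0, 1 and 2 of them at an unadjusted p under 0.05, and 0 with voom). Groups were apart in all 4 libraries for 1 histone gene that was higher (13.9% of all genes tested) and 5 that were lower (14.2%).

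**Figure D3:**
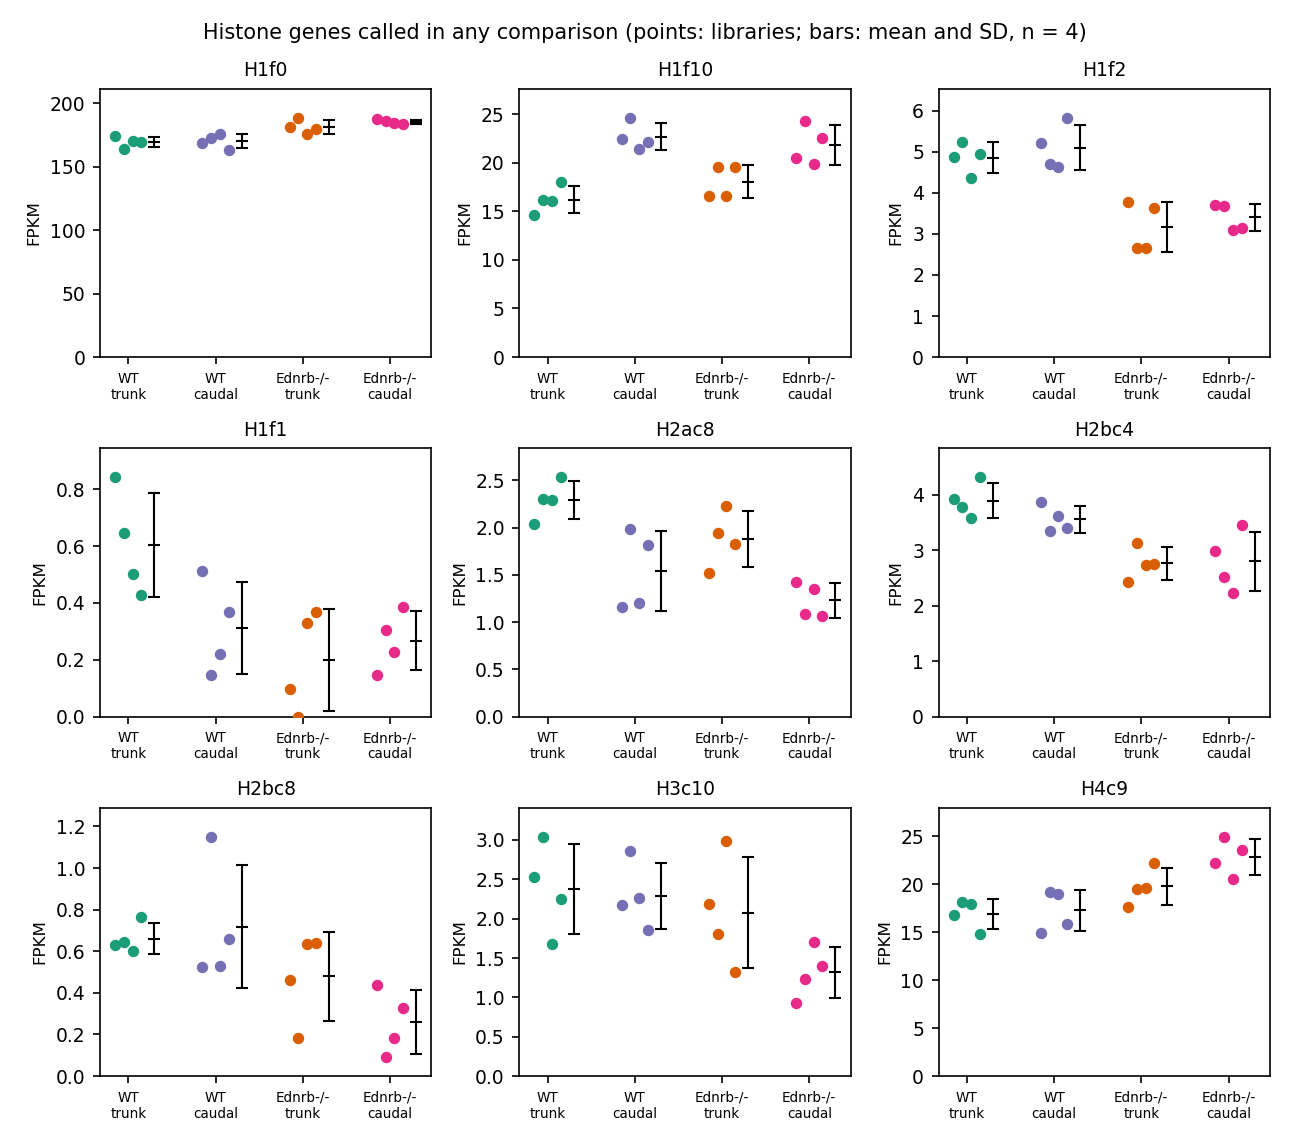
FPKM of the 9 histone genes that passed the test in any comparison, 1 point per library in each of the 4 groups, with mean and SD (n = 4); every axis starts at 0. H1f2 is lower in both Ednrb-/- groups, H4c9 is highest in Ednrb-/- caudal tissue, H1f10 is lower in trunk than in caudal tissue, and the H1f0 groups lie within 163 to 189 FPKM (its small rise reversed under quantile scaling in caudal tissue).

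Many other histone genes had wide intervals. The 95% interval of a genotype difference had a median half-width of 0.48 on the log2 scale over the 34 genes, which had a median of 15 reads per library. Genes with narrower intervals, such as H1f0, H2bc4 and H4c9, passed with smaller differences than that. H2bc21, whose transcript model had a poly(A) signal and no stem-loop, was measured more closely. It had 4.66 ± 0.169 FPKM in WT and 4.24 ± 0.436 FPKM in Ednrb-/- caudal tissue. Its difference was -0.13 ± 0.08 (adjusted p = 0.24; 95% interval -0.30 to 0.05). H3c3, the highest H3 gene, had 5.06 ± 1.07 and 4.41 ± 0.842 FPKM in WT and Ednrb-/- caudal tissue, and 6.52 ± 1.32 and 5.09 ± 0.836 FPKM in trunk. Neither difference passed (-0.17 ± 0.17, adjusted p = 0.45, and -0.32 ± 0.17, adjusted p = 0.19). H2ac11, the highest H2A gene, had differences of -0.19 ± 0.20 (adjusted p = 0.48) and 0.03 ± 0.20 (adjusted p = 0.92). H2bc12 stood at -0.27 ± 0.29 (adjusted p = 0.48) and -0.23 ± 0.29 (adjusted p = 0.59), and H4c4, the third H4 gene in level, at -0.10 ± 0.14 (adjusted p = 0.62) and 0.08 ± 0.14 (adjusted p = 0.74), caudal first in each case.

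**Figure D4:**
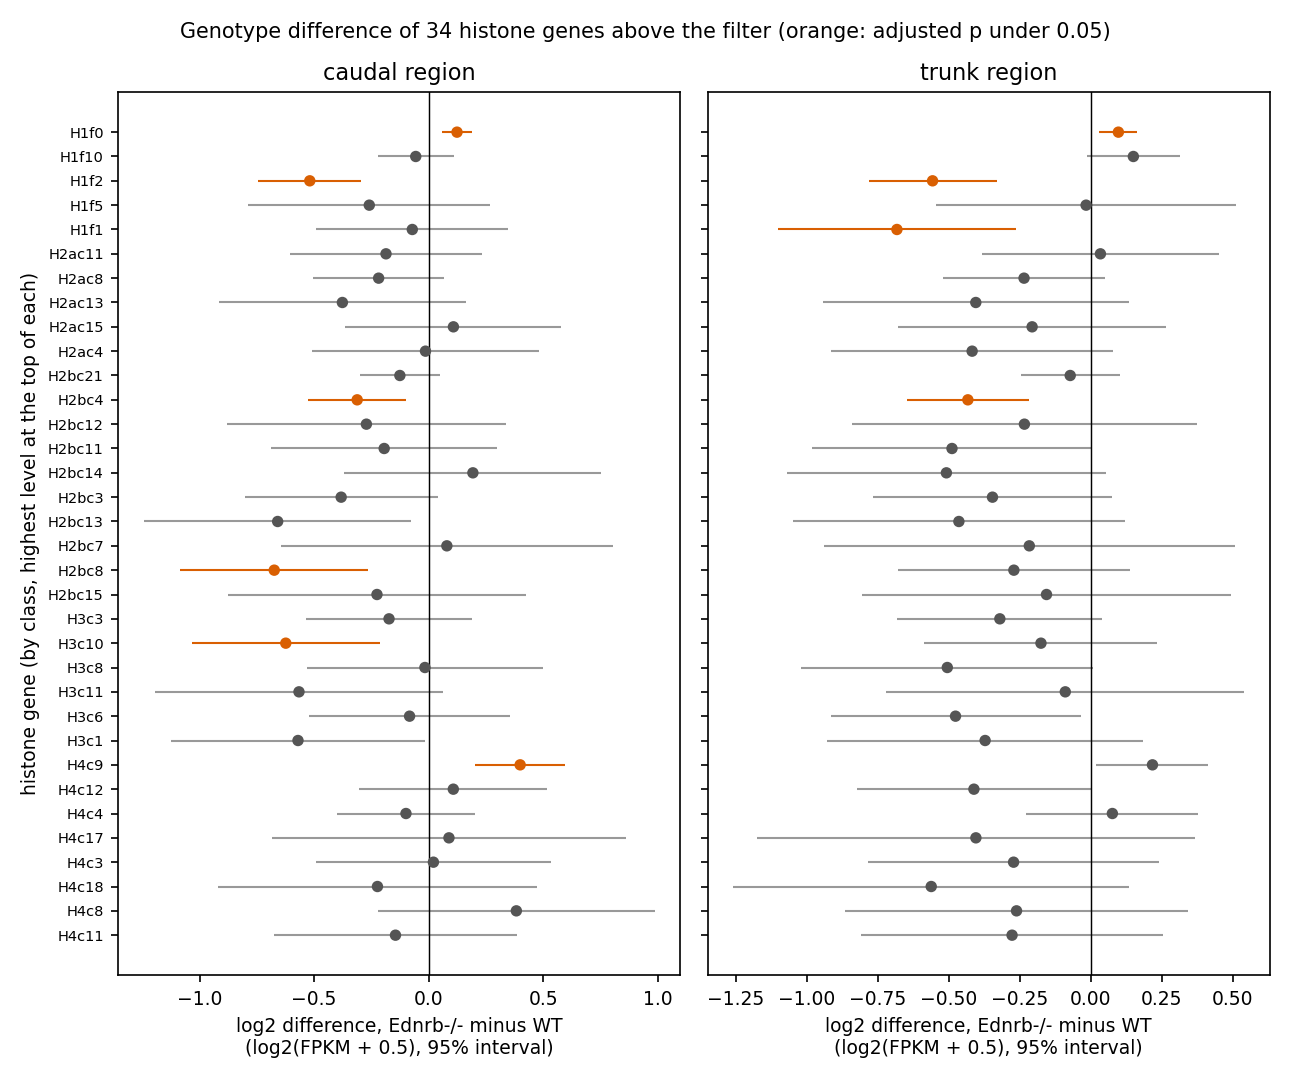
Difference between Ednrb-/- and WT (log2(FPKM + 0.5), point and 95% interval) for the 34 histone genes above the filter, by class with the highest level at the top of each class, in caudal (left) and trunk tissue (right); orange marks an adjusted p under 0.05. Of the points, 25 lie left of 0 in caudal tissue and 29 in trunk, most with intervals that include 0.

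Whether the genotype difference itself differed between the regions was tested as an interaction. No histone gene passed (limma, 0 of 34, against 6.76% of all genes tested, 2.98% higher and 3.78% lower). Over all genes 513 were higher and 650 lower, against 298 and 1129 with TPM scaling and 447 and 1187 with voom. H1f1 was the 1 gene at an unadjusted p under 0.05 (0.61 ± 0.28, limma adjusted p = 0.20), and voom called 0. For H4c9 the caudal minus trunk difference was 0.18 ± 0.13 (adjusted p = 0.43), for H2bc8 -0.40 ± 0.27 (adjusted p = 0.40) and for H3c10 -0.45 ± 0.27 (adjusted p = 0.34). A gene that passed in 1 region only was therefore not shown to respond differently there.

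Between trunk and caudal tissue, 2 histone genes passed in each genotype and they were H1f10 and H2ac8 both times. In WT embryos this was 5.88% of the 34 genes, against 18.0% of all genes tested (9.69% higher, 8.35% lower in trunk). In Ednrb-/- embryos it was again 5.88%, against 36.2% (17.3% higher, 18.9% lower). Over all genes 2982 were higher and 3252 lower in Ednrb-/- trunk, against 3946 and 1943 with TPM scaling. Groups were apart in all 4 libraries for 1 gene higher and 1 lower in trunk in each genotype (11.0% and 10.3% of all genes tested in WT, 17.0% and 16.8% in Ednrb-/-).

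H1f10 encodes the linker histone also called H1x, and lies on chromosome 6 from 87957403 to 87958619 (minus strand, ENSMUSG00000044927). There H1f10 overlaps the gene Gm5577 on the opposite strand and the gene ENSMUSG00002076518 on its own strand. It had 14.6, 16.1, 16.1 and 18.0 FPKM in WT trunk. In WT caudal tissue the values were 22.5, 24.6, 21.4 and 22.2 FPKM. No trunk library reached the caudal range. H1f10 was lower in trunk by 0.47 (-0.47 ± 0.08, limma adjusted p = 0.00066), in all 28 alternatives. In Ednrb-/- embryos the values were 16.5, 19.5, 16.6 and 19.5 FPKM in trunk and 20.5, 24.3, 19.9 and 22.5 FPKM in caudal tissue. The groups were again apart, with a difference of -0.27 ± 0.08 (adjusted p = 0.014). Without Ednrb-/- caudal replicate 2 it missed the threshold (-0.22, adjusted p = 0.052).

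H2ac8, an H2A gene on chromosome 13 from 23754691 to 23755394 (minus strand, ENSMUSG00000069272), was higher in trunk. It had 2.03, 2.30, 2.30 and 2.53 FPKM in WT trunk, against 1.16, 1.98, 1.20 and 1.81 FPKM in the WT caudal libraries, without overlap (0.47 ± 0.13, adjusted p = 0.023). The Ednrb-/- libraries had 1.51, 1.95, 2.23 and 1.83 FPKM in trunk and 1.43, 1.09, 1.35 and 1.06 FPKM in caudal tissue, also without overlap (0.46 ± 0.13, adjusted p = 0.015). The WT call was lost in 5 of 28 alternatives, among them without WT trunk replicate 4, WT caudal replicate 1 or WT caudal replicate 3, and the Ednrb-/- call in 2, quantile scaling and without Ednrb-/- trunk replicate 3. Among genes that missed the threshold, H3c6 stood at 1.02 ± 0.437 FPKM in WT trunk, against 0.497 ± 0.175 FPKM in caudal tissue (0.58 ± 0.21, adjusted p = 0.064), and H3c8 at 1.23 ± 0.222 and 0.656 ± 0.351 FPKM (0.62 ± 0.24, adjusted p = 0.088). In Ednrb-/- embryos these 2 differed by 0.19 ± 0.21 (adjusted p = 0.52) and 0.13 ± 0.24 (adjusted p = 0.70).

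The remaining H1 genes were barely measured. H1f5, a replication-dependent linker histone above the filter, had 0.476 ± 0.228, 0.531 ± 0.181, 0.487 ± 0.315 and 0.370 ± 0.222 FPKM in WT trunk, WT caudal, Ednrb-/- trunk and Ednrb-/- caudal tissue, and passed in no comparison (adjusted p = 0.44 in caudal tissue and 0.97 in trunk). H1f4 averaged 0.164 FPKM and H1f3 0.0881 FPKM over all libraries, with no library of either above 0.354 FPKM. The germ cell linker histones were at or near 0: H1f6 averaged 0.0325 FPKM, the oocyte form H1f8 0.0128, H1f9 0.0938 and H1f7 0. Of 10 germ cell genes on a list, 2 passed the filter, Ddx4 and Nanos3, and the sum of the 10 ranged from 1.61 to 3.60 FPKM per library. In all, 35 of the 69 histone genes stayed below the filter, the highest of them H2bc22 at 0.342 FPKM.

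Genes that work around histones were counted from lists, to be read beside the share of all genes tested that rose (21.7% in caudal tissue, 12.2% in trunk) or fell (19.9% and 13.0%). Of 25 genes of S phase and DNA replication, 25 rose in Ednrb-/- caudal tissue and 21 in Ednrb-/- trunk (limma; medians 0.44 and 0.27), and none fell in either. Under the other scalings and voom 24 or 25 rose in caudal tissue and 20 or 21 in trunk. Mcm3, a subunit of the replicative helicase, went from 56.3 ± 3.26 to 77.9 ± 4.52 FPKM in caudal tissue (0.47 ± 0.05, adjusted p = 1.1e-05) and Pole, a replicative DNA polymerase, from 8.63 ± 0.261 to 11.7 ± 0.944 FPKM in trunk (0.41 ± 0.05, adjusted p = 9.4e-05). The 34 histone genes had medians of -0.16 and -0.27 in these same comparisons. Of 22 histone chaperones and assembly factors, 18 rose and 1 fell in caudal tissue, and 10 rose in trunk. Nasp, a chaperone for H1 and for H3 with H4, stood at 102 to 114 FPKM in the WT and 143 to 167 FPKM in the Ednrb-/- caudal libraries (0.50 ± 0.06, adjusted p = 1.9e-05), and Chaf1b, a subunit of chromatin assembly factor 1, from 10.8 ± 0.13 to 14.8 ± 1.48 FPKM (0.43 ± 0.05, adjusted p = 2.3e-05). The 1 that fell was Cdan1 (-0.18 ± 0.05, adjusted p = 0.0090), which did not pass with quantile scaling (-0.09, adjusted p = 0.18).

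Factors that transcribe and process histone messenger RNA were counted next. Of 24 (shares of all genes that rose: 21.7% in caudal tissue, 12.2% in trunk), 10 rose in caudal tissue and 7 in trunk, and none fell (medians 0.13 and 0.12), while with TPM scaling 8 rose and 2 fell in caudal tissue and 6 rose and 1 fell in trunk. Slbp, which binds the stem-loop shown above, went from 20.7 ± 1.38 to 25.1 ± 1.78 FPKM in caudal tissue (0.27 ± 0.06, adjusted p = 0.0015). Ncbp1, the larger subunit of the cap-binding complex, rose by 0.31 ± 0.04 (adjusted p = 3.2e-05) and Casp8ap2, a component of the histone locus body, by 0.21 ± 0.04 (adjusted p = 0.00051). Npat, the coactivator of histone gene transcription in S phase, stood at 11.3 ± 0.709 and 11.8 ± 0.613 FPKM and did not pass (0.05 ± 0.06, adjusted p = 0.51). Pou2f1, which binds the octamer of H2B promoters, rose in both regions, by 0.26 ± 0.05 in caudal tissue (adjusted p = 0.00061) and by 0.37 ± 0.05 in trunk (adjusted p = 0.00012).

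Histone variants made outside S phase were counted apart. Of 12 on the list 10 were found and 9 passed the filter, and 4 rose in each region. This count depended on the scaling: in caudal tissue 3 rose and 1 fell with TPM scaling, and 2 rose and 3 fell with quantile scaling (median -0.04 in place of 0.11). H2az1, an H2A variant found at promoters, went from 313 ± 23.7 to 409.6 ± 23.6 FPKM in caudal tissue (0.39 ± 0.06, adjusted p = 7.2e-05) and from 283 ± 11.4 to 339 ± 13.7 FPKM in trunk (0.26 ± 0.06, adjusted p = 0.0037). Macroh2a1, Cenpa, the H3 variant of centromeres, and H2ax, the variant phosphorylated at DNA breaks, were the others in both regions. With quantile scaling H2az1 (0.06, adjusted p = 0.31) and H2ax (-0.04, adjusted p = 0.47) did not pass in caudal tissue, and H2ax passed in neither region with TPM scaling, listed reads as the total or voom. FPKM values of these 4 were higher than those of the core histone genes, of which H4c9 was the highest at 19.2 FPKM. RNA selection and the treatment of reads that match several genes were not known. How abundant these messenger RNAs were relative to each other was therefore not measured. Between the regions of Ednrb-/- embryos, 23 of 25 replication genes, 19 of 22 chaperones and 5 of 9 variants were lower in trunk. Of all genes tested, 18.9% were lower there. Under the other scalings and voom the list counts were 20 to 23, 14 to 19 and 2 to 5. In the same comparison H2ac8 was higher in trunk and H1f10 lower.

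**Figure D5:**
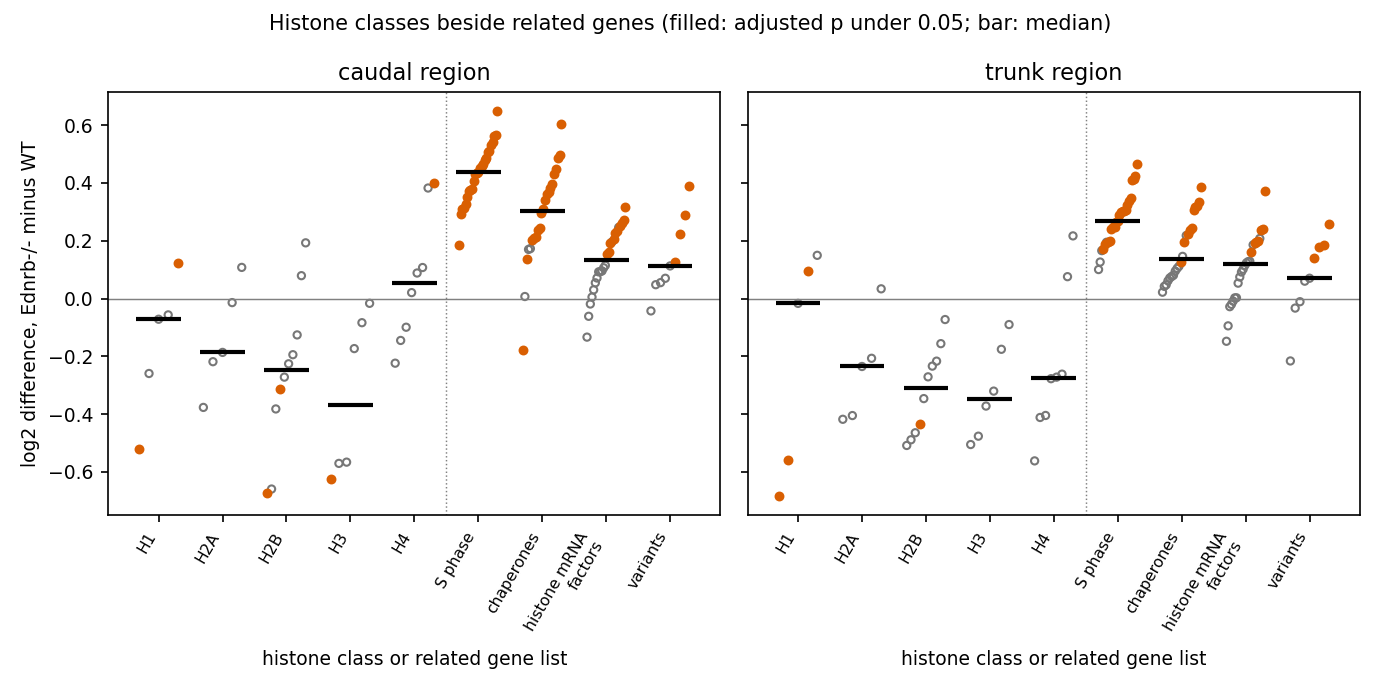
Difference between Ednrb-/- and WT (log2(FPKM + 0.5)) of single genes in each histone class and in 4 lists of related genes, in caudal (left) and trunk tissue (right); filled points have an adjusted p under 0.05 and bars are medians of genes above the filter. Replication genes lie above 0 in both regions, whereas most histone genes of classes H2A, H2B and H3 lie below.

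Genes of other cell types moved in the same comparisons. Of 14 genes of neurons after their last division, 13 fell and 1 rose in Ednrb-/- caudal tissue, and 3 fell and 1 rose in trunk (shares of all genes that fell: 19.9% and 13.0%). The 1 that rose, Isl1, passed in neither region with TPM scaling, quantile scaling or listed reads as the total, and in trunk 4 fell with quantile scaling or listed reads and 7 with voom. Their sum ranged from 557 to 728 FPKM in WT caudal and from 237 to 408 FPKM in Ednrb-/- caudal libraries, and from 648 to 841 and 618 to 700.4 FPKM in WT and Ednrb-/- trunk, with none of the 14 at 0 in a group. Of 14 erythroid genes, 6 fell and 2 rose in caudal tissue and 7 fell and 2 rose in trunk. Their sum ranged from 5453 to 6603 and from 3801 to 6159 FPKM in WT and Ednrb-/- caudal tissue, and from 4858 to 6436 and 3737 to 4242 FPKM in trunk, again with none at 0 in a group. H1f2 fell by 0.52 in caudal tissue and by 0.56 in trunk, beside a median of -1.15 for the neuronal list in caudal tissue and -0.24 in trunk. Between the regions of Ednrb-/- embryos, where H1f10 and H2ac8 passed, 13 of the 14 neuronal genes were higher in trunk and 1 was lower. Of all genes tested, 17.3% were higher and 18.9% lower in that comparison. The part of the mix of cell types in the histone differences was not tested. Among the RNAs without a poly(A) tail, 4 passed the filter and 3 of them rose in caudal tissue (Snord43 by 1.98 ± 0.28, Rn7sk by 0.98 ± 0.20 and Snord17 by 0.73 ± 0.28), with differences of 0.54 ± 0.28, 0.34 ± 0.20 and 0.50 ± 0.28 in trunk that did not pass. Snord17 did not pass in caudal tissue with TPM scaling, listed reads as the total or voom (adjusted p from 0.064 to 0.097), which leaves 2 that rose.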

How the data were processed

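FPKM values per gene were deposited as 1 table by the authors. Per the submitters' processing notes, the tools were fastp, HISAT2 2.0.5 and featureCounts 1.5.0-p3, with genome build mm39. The annotation release, strand setting, multimapping rule and RNA selection were not found in any source used here. Total RNA was the labelled molecule. FPKM times gene length gave whole reads for 100% of values within 0.01 of a whole number, which were used for depth and for voom.

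Genes with at least 0.5 FPKM in 4 of 16 libraries were fitted with limma 3.58.1 (R 4.3.3) on log2(FPKM + 0.5), a log2 scale computed here from the deposited FPKM, with 4 group means and trended variances. P-values were adjusted by Benjamini-Hochberg over all 17205 genes, with 0.05 as the threshold. The script was tested on simulated data. Nothing says that replicates came from separate litters, so p-values measure the spread between these libraries.

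Alternatives were pseudocounts of 0.1 and 1, no filter or 1 FPKM, other scalings, voom, a replicate block, only the groups compared, and leaving out libraries. Stem-loops and signals were searched in GENCODE M21 transcripts (GRCm38, matched by Ensembl ID, sequences only) and promoters in RefSeq windows of GRCm38.p6. Positions of genes are the deposited mm39 ones.

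Genes named were every measured H1 gene, the 3 highest of each other class, those with the smallest adjusted p in each genotype comparison, any gene that alone passed in its class, the germ cell forms, and up to 4 per related list by adjusted p. Slbp, Npat, Rn7sk and other genes outside that rule were named for their role, after their values were seen. The members and lists were chosen with earlier results of these data known. Figures were drawn with matplotlib 3.10.9.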

Additional observations from a re-analysis of the deposited data

Results flagged for a closer look

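Of 100 groups of 4 libraries examined, 3 held a library far from the others by Dixon's criterion, the gap to the nearest library over the group's range, where chance gives about 1 in 20. H3c8 stood at 1.13 FPKM in Ednrb-/- trunk replicate 2, and the other 3 libraries lay between 0.561 and 0.648. H4c12 stood at 3.18 FPKM in WT trunk replicate 4, and the others between 1.78 and 2.00. The summed H4 level was 24.9 FPKM in Ednrb-/- caudal replicate 3, a library that also holds both Xist and Ddx3y, and 28.9 to 29.5 FPKM in the others.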

How the results depend on the processing

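Of the calls, H1f2 in both regions, H4c9 in caudal tissue, H2bc4 in trunk and H1f10 in WT embryos held in all 28 alternatives. In Ednrb-/- against WT caudal tissue, the count of histone genes that rose was 1 with TPM, quantile, listed-read and voom settings in place of 2, and the count that fell was 2 in place of 4 without the libraries holding Xist and Ddx3y. In trunk, the count that rose was 0 in place of 1 with no filter, TPM, quantile, listed reads, voom, the replicate block or only the groups compared. Trunk against caudal tissue, the count higher in WT was 0 with no filter or only the groups compared and 2 with the replicate block, and in Ednrb-/- it was 2 with TPM and 2 without the Xist and Ddx3y libraries, each in place of 1. Quantile scaling gave 1 gene in the interaction, H1f0 (-0.16), and turned H1f0 to -0.12 in caudal genotype and to 0.11 between Ednrb-/- regions. The H1 sum became 196.4 FPKM (TPM), 196.3 (listed reads) and 199.1 (quantile) in WT trunk, 211.6 (quantile) in WT caudal, and 201.8, 205.1 and 193.5 in Ednrb-/- caudal tissue. The H2B sum there became 14.1, 14.3 and 15.9 FPKM. The cause of these shifts was not tested.

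Leaving out 1 library at a time gave 2 risen and 3 to 7 fallen in caudal tissue, 0 to 1 and 2 to 5 in trunk, 0 to 3 higher and 1 lower in WT trunk against caudal, 1 to 3 and 0 to 2 in Ednrb-/-, and 0 for the interaction. The highest counts came without WT caudal replicate 3 (7), WT trunk replicate 3 (5), WT caudal replicate 4 (3), and Ednrb-/- trunk replicate 2 or caudal replicate 3 (3). Deviations of same-numbered libraries had correlations from -0.08 to 0.11. Only WT trunk replicates 2 and 3, set against WT caudal tissue, correlated best with the same-numbered library, so the block was not used in the report. Whether such libraries share an embryo is not known. With the replicate block, 2 genes rose and 5 fell in caudal tissue and 0 and 4 in trunk. Low read counts limit most core histone genes.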
